A study of Mus musculus with 6 samples.

Results

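Endothelial cells line the vessels of the kidney, and 10 genes that mark them are described here in whole kidneys of 3 control mice and 3 mice labelled as iNampt-conditional knockouts. The genes are Pecam1, Cdh5, Kdr, Flt1, Tek, Emcn, Ehd3, Plvap, Vwf and Nos3, and their probes were found by RefSeq accession. All 10 were on the array, with 13 probes, and all 10 were among the 15309 genes tested, of 21154 named on the array. The animals were male C57BL/6J mice, and RNA of each was hybridised to 1 single-colour Agilent 8x60K array. Nampt encodes the rate-limiting enzyme of NAD salvage, and the study's title places its loss in the proximal tubule, an epithelial segment that peritubular capillaries surround. The labels give neither the driver of the deletion, nor the genotype of the controls beyond that word, nor the animals' age.

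The endothelium of the kidney differs by place. In the glomerulus it is perforated and filters plasma together with podocytes, around the tubules it is perforated and closed by diaphragms, and in the larger vessels it is continuous. It depends on vascular endothelial growth factor made by podocytes and tubule cells and on angiopoietins made by neighbouring mural cells, and it makes nitric oxide and von Willebrand factor. Transcripts of this cell type were set side by side, animal by animal, in knockout and control kidneys.

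Levels are log2 processed signals relative to the 75th percentile of each array, and differences are knockout minus control on that log2 scale. Levels of different probes cannot be compared with each other. The share of spots well above background ran from 57.3% to 63.3% over the arrays. The lowest signal called well above background was 18.5 to 32.2 units, highest on the arrays of knockouts 2 and 3, which lay in the second row of the slide. The probes used for the 10 genes gave 408 to 19114 units, and all 13 probes were well above background on all 6 arrays. Nampt itself stood at 2.67 ± 0.09 (SD, n = 3) in control animals and at 1.61 ± 0.17 (SD, n = 3) in knockouts, with no overlap (limma adjusted p = 0.0431). In the 18 alternative settings its difference lay between -1.15 and -0.87, and it passed in 9 of them, with a largest adjusted p of 0.184. Whether its probe lies in the deleted part is unknown. The labels number the mice of each group. Each limma p-value sets the difference between groups against the spread between these animals, moderated by that of all genes.

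None of the 10 endothelial genes passed the test. By limma with Benjamini-Hochberg adjustment over all genes at 0.05, 0 of 10 were higher and 0 of 10 lower, where 0.170% of all genes passed. At an unadjusted p under 0.05 there were also 0 of 10, against 12.8% of all genes. Read at the brightest probe of each gene, the groups overlapped for all 10, while 19.5% of all genes had groups that did not overlap. The differences were above 0 for 4 of the 10 genes and above 0 for 47.1% of all genes. Their median was -0.0053, beside -0.0077 over all genes tested. In whole tissue a change in the number of endothelial cells and a change in RNA per cell cannot be told apart.

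**Figure D1:**
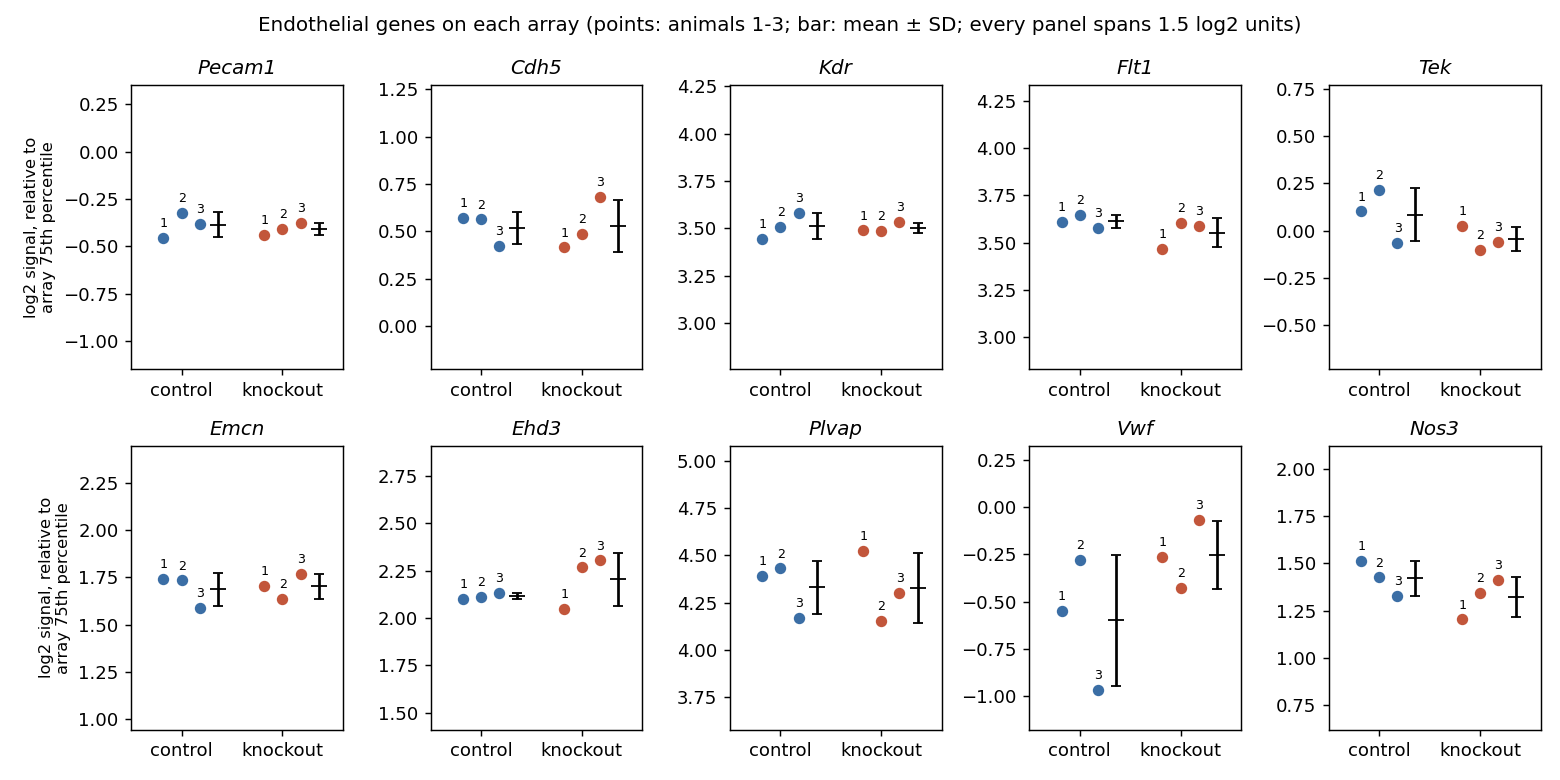
Log2 signal relative to the 75th percentile of the array for each of the 10 endothelial genes, with 1 point per animal (blue, controls 1 to 3; red, knockouts 1 to 3) and the mean ± SD beside each group; every panel spans the same range of log2 units. The groups overlap in all 10 panels, and Vwf has the widest spread, from -0.97 to -0.07.

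Kdr, Flt1 and Tek encode receptors through which growth factors reach the endothelium. KDR is VEGF receptor 2, the main signalling receptor for vascular endothelial growth factor. Its levels in controls 1, 2 and 3 were 3.44, 3.51 and 3.58, and knockouts 1, 2 and 3 had levels of 3.49, 3.49 and 3.54; this order of animals is kept throughout. The 3 knockouts lay inside the range of the 3 controls. The difference was -0.0071 ± 0.05 (SE; limma adjusted p = 0.972), with a 95% interval from -0.14 to 0.12.

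Flt1 encodes VEGF receptor 1, which binds the same ligand tightly and also exists as a soluble decoy; the sources used here do not say which form its probe detects. Flt1 was at 3.61, 3.65 and 3.58 in the controls and 3.47, 3.61 and 3.59 in the knockouts. Knockout 1 was the lowest array, and the other two knockouts lay among the controls. The difference was -0.06 ± 0.06 (SE; adjusted p = 0.719), with an interval from -0.20 to 0.08, and it was -0.15 when blocked by slide row (adjusted p = 0.557).

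Tek encodes TIE2, the receptor for angiopoietins. It was at 0.10, 0.21 and -0.06 in the controls and 0.03, -0.10 and -0.06 in the knockouts. Controls 1 and 2 were the highest arrays, and control 3 lay among the knockouts. The difference of -0.13 ± 0.08 (SE; adjusted p = 0.596) was the most negative of the 10, with an interval from -0.33 to 0.08. Without control 3 it was -0.20 (adjusted p = 0.438), and with array weights it was -0.21 (adjusted p = 0.199), the smallest adjusted p of any of the 10 genes in any setting. It was -0.06 when blocked by slide row.

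Pecam1 and Cdh5 encode proteins of the junctions between endothelial cells. The product of Pecam1 is CD31, an adhesion molecule that platelets and leukocytes also carry. Its levels were -0.45, -0.32 and -0.38 in the controls and -0.44, -0.41 and -0.38 in the knockouts, so that the knockouts fell inside the range of the controls. The difference was -0.02 ± 0.05 (SE; adjusted p = 0.900), with an interval from -0.15 to 0.11.

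Cdh5 encodes VE-cadherin, the adhesion protein of endothelial junctions. It was at 0.57, 0.56 and 0.42 in the controls and 0.41, 0.49 and 0.68 in the knockouts. Knockout 3 was the highest array and knockout 1 the lowest. The difference was 0.0096 ± 0.09 (SE; adjusted p = 0.976). When slide row entered as a block, a fit that rests on knockout 1 against the 3 controls of the same row, it was -0.10 (adjusted p = 0.831).

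Emcn, Ehd3 and Plvap mark different vascular beds of the kidney. Emcn encodes endomucin, a sialomucin of capillaries and veins, and was at 1.74, 1.73 and 1.59 in the controls and 1.71, 1.64 and 1.77 in the knockouts. Control 3 was the lowest array and knockout 3 the highest. The difference was 0.02 ± 0.07 (SE; adjusted p = 0.946), with an interval from -0.14 to 0.18.

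Ehd3 encodes a membrane-trafficking protein that in kidney marks the glomerular endothelium. The controls were very close to each other, at 2.10, 2.11 and 2.13, and the knockouts were at 2.05, 2.27 and 2.30. Knockout 1 lay below all 3 controls and knockouts 2 and 3 above all 3. The difference was 0.09 ± 0.08 (SE; adjusted p = 0.692), and it went from -0.07 when blocked by slide row to 0.17 without knockout 1 (adjusted p = 0.801 and 0.273). Knockouts 2 and 3 are also the arrays of the second slide row, and the part of slide row in this pattern was not tested.

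Plvap encodes the protein that forms the diaphragms of peritubular capillary openings and is largely missing from mature glomerular endothelium. It was at 4.39, 4.43 and 4.17 in the controls and 4.52, 4.16 and 4.30 in the knockouts. Knockout 1 was the highest array and knockout 2 the lowest. The difference was -0.0035 ± 0.12 (SE; adjusted p = 0.993), with an interval from -0.29 to 0.28, and it was 0.19 when blocked by slide row (adjusted p = 0.708) and -0.10 without knockout 1.

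Vwf and Nos3 encode a secreted protein and an enzyme of the endothelium. Vwf encodes von Willebrand factor, which tethers platelets and is also made by megakaryocytes. It was at -0.55, -0.28 and -0.97 in the controls and -0.26, -0.43 and -0.07 in the knockouts. Knockouts 1 and 3 were the highest arrays, knockout 2 lay below control 2, and control 3 was the lowest. The difference of 0.34 ± 0.19 (SE; adjusted p = 0.517) was the largest of the 10, a 1.27-fold ratio with an interval from 0.922-fold to 1.75-fold. It was 0.16 without control 3 and 0.50 without control 2 (adjusted p = 0.506).

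Nos3 encodes endothelial nitric oxide synthase, whose product relaxes vascular smooth muscle. It was at 1.51, 1.43 and 1.33 in the controls and 1.20, 1.35 and 1.42 in the knockouts. Knockout 1 was the lowest array and control 1 the highest. The difference was -0.10 ± 0.08 (SE; adjusted p = 0.661), with an interval from -0.29 to 0.09, and it was -0.22 when blocked by slide row (adjusted p = 0.532).

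**Figure D2:**
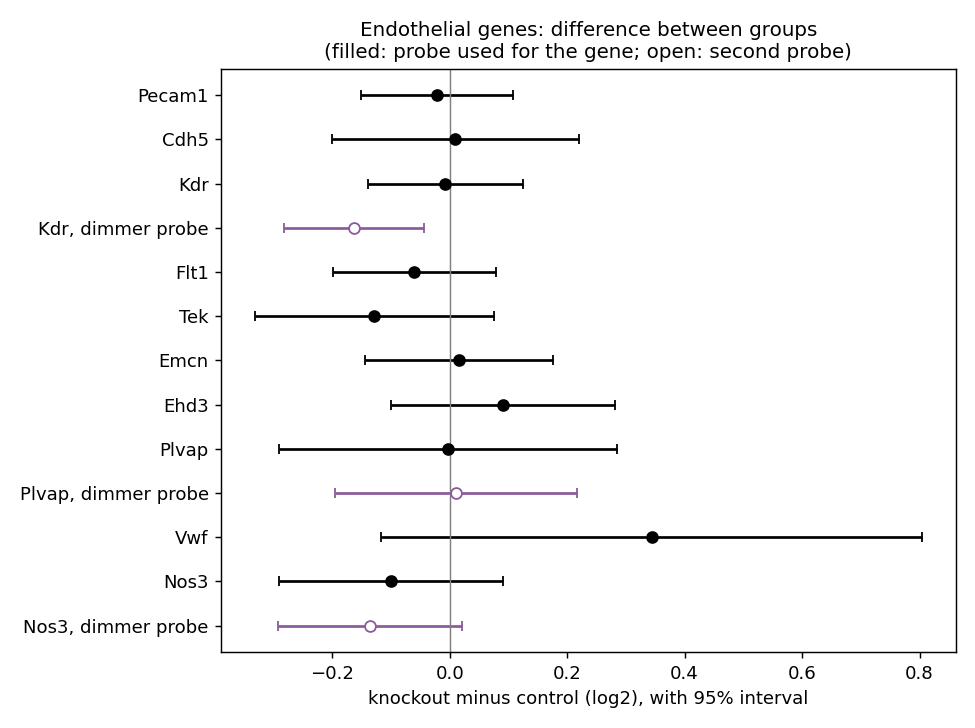
Difference of each endothelial gene, knockout minus control on the log2 scale, with its 95% interval from limma for single genes, unadjusted for their number (filled, the probe used for the gene; open, the second probe of Kdr, Plvap and Nos3, fitted among all probes). All 10 filled intervals include 0, and the open interval of Kdr, from -0.28 to -0.04, does not.

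For the 9 genes other than Vwf, the 95% intervals ran from 0.794-fold for Tek at the lowest to 1.22-fold for Plvap at the highest. The tightest were those of Pecam1, from 0.900-fold to 1.08-fold, and Kdr, from 0.908-fold to 1.09-fold. For Kdr this is the interval of its brighter probe alone, and that of its dimmer probe ran from -0.28 to -0.04 in log2. The SD within groups was 0.05 for both genes, 0.27 for Vwf and 0.17 for Plvap, where the median over all genes was 0.09. Vwf thus stood at the 89.3rd percentile of all genes for its spread between animals, and Pecam1 at the 17.2nd.

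For the median over the 10 genes, the spread between animals of a group was wider than the distance between the groups. This did not hold for every single gene. Vwf differed by 0.34 and Tek by -0.13, where the SD within groups was 0.27 and 0.11. Against the mean of the controls, the median over the 10 genes stood at 0.03, 0.05 and -0.10 for controls 1, 2 and 3, whereas knockouts 1, 2 and 3 had medians of -0.06, -0.03 and 0.02. All 3 knockouts lay within the range of the controls. Control 3 was the lowest control for 7 of the 10 genes, and knockout 3 the highest knockout for 7 of the 10. Of all genes tested outside the 10, those whose 6 centred levels lay nearest to the mean of the endothelial genes were Tmx4, Agtpbp1 and Cnst, with root mean square differences of 0.017, 0.018 and 0.023 log2 units over the 6 arrays.

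Kdr, Plvap and Nos3 each had a second, dimmer probe of the same accession. For Kdr and Nos3 the groups overlapped at the brighter probe but not at the dimmer one. The dimmer Kdr probe was at 2.42, 2.37 and 2.41 in the controls and 2.24, 2.25 and 2.22 in the knockouts. All 3 knockouts lay below all 3 controls, as they did for 9.59% of the 32948 probes tested. Its difference was -0.16 ± 0.05 (SE), which did not pass among all probes by limma (adjusted p = 0.342, unadjusted p = 0.0156). Within each array, the log2 signal of the dimmer probe minus that of the brighter one ran from -1.17 to -1.02 over the controls and from -1.31 to -1.24 over the knockouts. This gap differed between groups by -0.16 (exact two-sided permutation p = 0.1, the smallest that 3 against 3 arrays can give, and 0.3 when adjusted over the 3 genes with a second probe).

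The dimmer Nos3 probe was at -0.82, -0.80 and -0.90 in the controls and -1.06, -0.94 and -0.93 in the knockouts, again with no overlap. Its difference was -0.14 ± 0.06 (SE; limma adjusted p = 0.519), on the same side of 0 as that of the brighter probe. The dimmer Plvap probe differed by 0.01 ± 0.08 (SE; adjusted p = 0.981). The gap between probes differed by -0.04 for Nos3 and 0.01 for Plvap (exact permutation p = 0.5 and 0.6). Averaging both of its probes put Kdr at -0.08 (adjusted p = 0.503).

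The RefSeq promoter table of GRCm38.p6 held 5 of the 10 genes, Kdr, Flt1, Tek, Emcn and Ehd3. Endothelial genes are known as targets of transcription factors of the ETS family, so the 250 bases before each start in that table were searched on both strands. The motifs were the ETS cores CCGGAAG and CAGGAAG and AACAGGAA, a form of the joint forkhead and ETS motif. These starts are not always the gene's outer end. The Kdr and Flt1 windows lie inside the gene, and those of Tek and Emcn reach past the gene's start. A core was found in 1 of the 5 windows, that of Emcn, and in 16.8% of all 27025 windows of that length. The joint motif was found in the Emcn window as well, overlapping the core, and in 2.16% of all windows. The Emcn window, chr3:137340828-137341077 on the plus strand, is shown with the bases of both matches in capitals. Both lie on the reverse strand, and the core begins 174 and the joint motif 173 bases before that start.
Emcn: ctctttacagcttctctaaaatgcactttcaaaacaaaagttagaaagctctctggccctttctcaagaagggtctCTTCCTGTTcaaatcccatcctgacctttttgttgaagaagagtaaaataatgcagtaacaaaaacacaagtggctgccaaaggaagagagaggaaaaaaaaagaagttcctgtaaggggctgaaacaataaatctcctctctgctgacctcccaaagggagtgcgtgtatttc
The match is a description of letters and was not tied to any level here, and its absence from the other windows says nothing of those genes.

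Beyond the 10 genes, 31 further endothelial genes were all measured, and 0 passed in either direction. The differences of 18 were above 0 and of 13 below, with a median of 0.0039. At an unadjusted p under 0.05 there were 1 higher and 2 lower, where 6.69% of all genes were higher and 6.13% lower. The groups did not overlap for 2 higher and 2 lower, beside 9.04% and 10.5% of all genes. The genes nearest to 0 included Tie1, an orphan receptor beside TIE2, at 0.01 ± 0.05 (SE), and Rasip1, a regulator of vessel lumens, at 0.0039 ± 0.07 (SE).

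Sox18, a transcription factor of endothelial and lymphatic development, was the most negative. It was at 0.15, 0.49 and 0.44 in the controls and -0.18, 0.03 and 0.09 in the knockouts, with all knockouts below all controls. The difference was -0.38 ± 0.12 (SE; adjusted p = 0.285), and it ran from -0.54 to -0.30 over the 18 alternative settings. With groups apart, leaving out an array, blocking or weighting could not turn its sign. Cyyr1 was at -1.47, -1.40 and -1.22 in the controls and -1.80, -1.62 and -1.55 in the knockouts, with a difference of -0.29 ± 0.10 (SE; adjusted p = 0.312).

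On the other side, S1pr1, the sphingosine 1-phosphate receptor that steadies endothelial junctions, was at -0.61, -0.56 and -0.67 in the controls and -0.42, -0.37 and -0.23 in the knockouts. The difference was 0.28 ± 0.07 (SE; adjusted p = 0.219), the smallest p of the list; this gene was picked out after its values were seen. Calcrl, a receptor subunit for adrenomedullin, was well above background on all 3 control arrays and on no knockout array, while its measured levels overlapped. Its level in knockout 3, -4.63, was above those of controls 1 and 3, -5.05 and -4.94. The lowest signal called well above background was 29.6 and 32.2 units on knockouts 2 and 3, and 18.5 to 20.9 on the other arrays. Calcrl entered the test through the controls alone, so this split in detection is no result for the gene. Sox7 and Sox17, relatives of Sox18 in the same gene family, were at -0.04 ± 0.11 and -0.12 ± 0.10 (SE), both with overlapping groups.

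**Figure D3:**
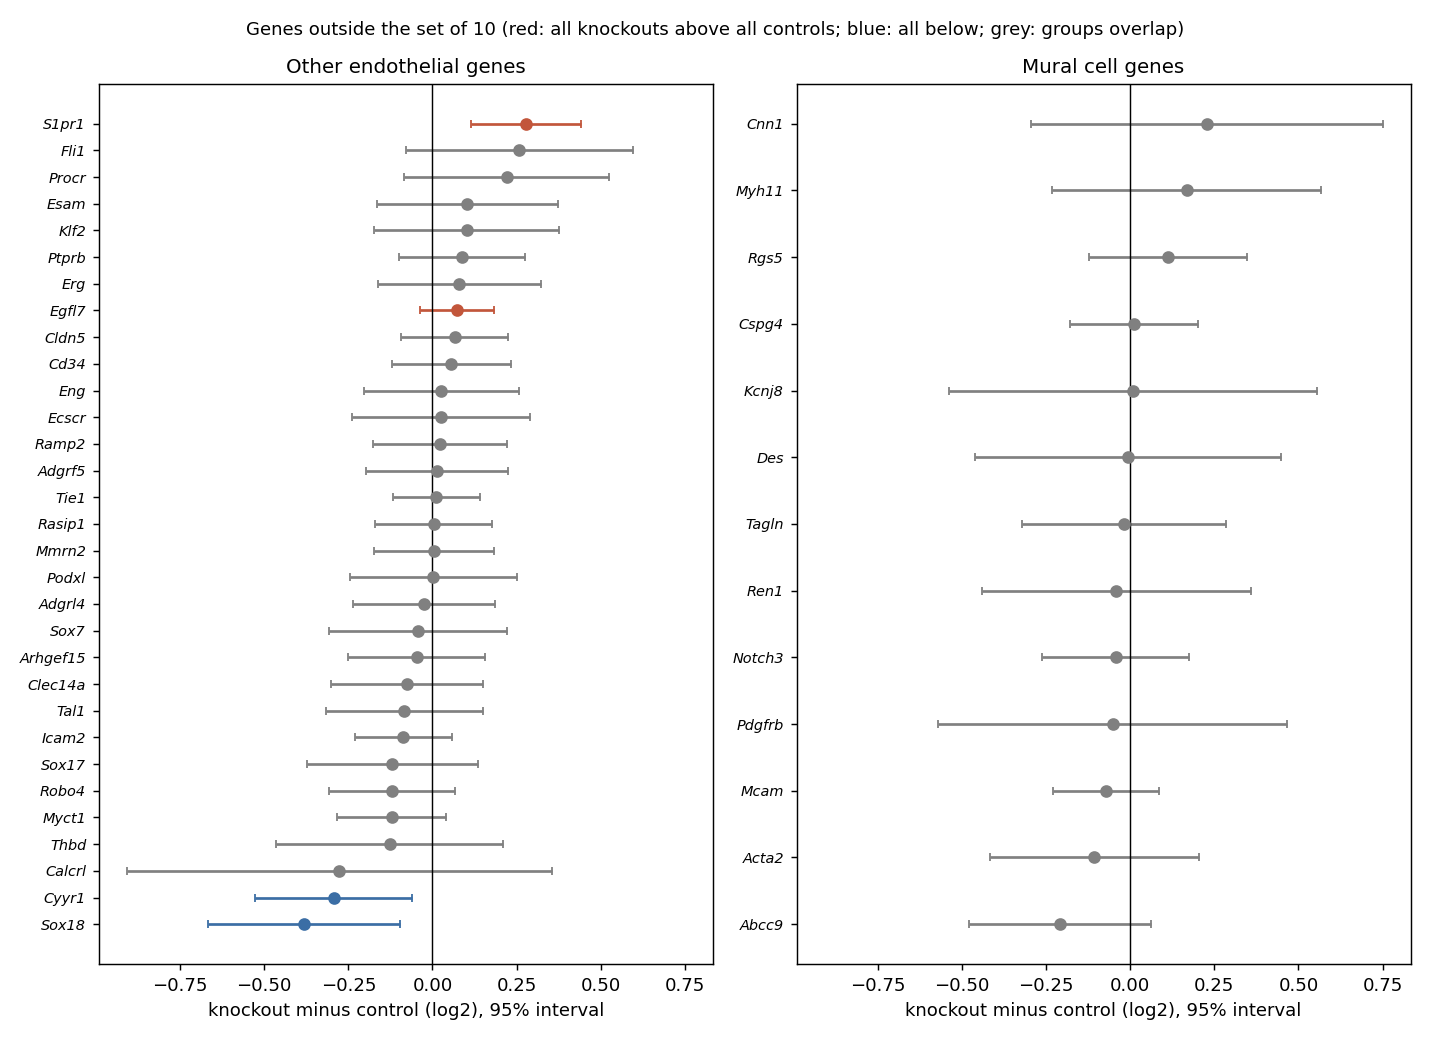
Difference, knockout minus control on the log2 scale, with 95% intervals from limma for 31 further endothelial genes (left) and 13 mural cell genes (right); red marks genes with all knockouts above all controls, blue all below and grey overlapping groups. The endothelial genes lie on both sides of 0, from Sox18 at -0.38 to S1pr1 at 0.28, and all 13 mural genes are grey.

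Of 12 names of vascular growth factors, their co-receptors and the VEGF receptor 3 gene Flt4, 11 were measured and 0 passed. Angpt4 was not well above background on all arrays of either group. Vegfa, the chief ligand of KDR and FLT1, was at 4.08, 4.10 and 4.06 in the controls and 3.98, 3.97 and 4.02 in the knockouts. All knockouts lay below all controls by a small margin, and the difference was -0.09 ± 0.04 (SE; limma adjusted p = 0.462). Groups were apart for 1 of the 11 genes as lower and 1 as higher, beside 10.5% and 9.04% of all genes. Angptl2, an angiopoietin-like protein, had means of -2.34 in the controls and -2.11 in the knockouts, which did not overlap, and a difference of 0.23 ± 0.10 (SE; adjusted p = 0.407), which was 0.06 under normexp with quantile normalisation. Flt4, which serves lymphatic endothelium, was at 0.25 ± 0.15 (SE), the largest difference of the list, and Pgf, placental growth factor, had an interval from -0.92 to 1.27. The ligands of TIE2, Angpt1 and Angpt2, were at 0.06 ± 0.06 and 0.02 ± 0.30 (SE). The median of the list was 0.02.

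In the Notch and arterial list, 12 of 13 names were measured, 0 passed, and the groups overlapped for all 12. Dll4, a Notch ligand of arterial and sprouting endothelium, was at 0.14 ± 0.07 (SE; adjusted p = 0.482), and Notch4, an endothelial Notch receptor, at -0.18 ± 0.09 (SE). The median was 0.01. Of 7 names on the list of the glomerular endothelium 6 were measured, 0 passed and none had groups apart. The differences of 3 were above 0 and of 3 below, with a median of 0.05. Plat, the tissue plasminogen activator, was at 1.16, 1.38 and 1.32 in the controls and 1.28, 1.72 and 1.80 in the knockouts. Knockouts 2 and 3, the arrays of the second slide row, were its highest, as for Ehd3, and knockout 1 lay among the controls. The difference was 0.31 ± 0.15 (SE; adjusted p = 0.457). For Lpl, of the same list, knockouts 2 and 3 were instead the lowest arrays, with a difference of -0.20 ± 0.10 (SE). The part of slide row in either gene was not tested.

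Around nitric oxide and endothelin, 10 of 13 genes were above 0, beside 47.1% of all genes, and 0 passed, with a median of 0.10. The groups did not overlap for 3 genes, all higher, beside 9.04% of all genes, and 3 had an unadjusted p under 0.05 as higher, beside 6.69%. Edn1 encodes endothelin 1, a vasoconstrictor peptide of endothelium and tubule. It was at -2.86, -3.11 and -3.49 in the controls and -2.60, -2.78 and -2.67 in the knockouts, a difference of 0.47 ± 0.16 (SE; adjusted p = 0.332). Ednrb, its receptor on endothelial and collecting duct cells, was at -0.22, -0.17 and -0.50 in the controls and 0.09, -0.11 and 0.04 in the knockouts, a difference of 0.30 ± 0.11 (SE; adjusted p = 0.334). Nostrin, which directs the trafficking of nitric oxide synthase, was at 0.26 ± 0.05 (SE; adjusted p = 0.188), and was picked out after its values were seen. In the 18 alternatives the smallest limma adjusted p of these 3 genes was 0.159, 0.221 and 0.0684. They stayed above 0, but with groups apart, leaving out an array, blocking or weighting could not turn their sign. Under normexp Edn1 was at 0.24 and Nostrin at 0.10, and without control 3 Ednrb was at 0.20. Cav1, the caveolar protein that restrains the synthase, was at -0.07 ± 0.14 (SE).

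Of 8 leukocyte adhesion names 6 were measured, since Sele and Selp, the selectins of activated endothelium, were not well above background in all arrays of either group. None passed. Jam2, a junctional adhesion molecule, was at -1.36, -1.25 and -1.34 in the controls and -1.24, -1.21 and -1.21 in the knockouts. This narrow separation was that of 1 of the 6 genes, where 9.04% of all genes had groups apart as higher. The difference was 0.10 ± 0.05 (SE; adjusted p = 0.495), and 0.03 under normexp. Vcam1, which binds leukocyte integrins and is made by tubule cells too, was at 1.17, 0.59 and 0.28 in the controls and 1.01, 1.73 and 1.33 in the knockouts, with a difference of 0.68 ± 0.27 (SE; adjusted p = 0.388). Control 1 lay above knockout 1, and the difference was 0.33 when blocked by slide row. Madcam1, an addressin, was at 0.20 ± 0.08 (SE; adjusted p = 0.384), and at 0.03 under normexp. These 2 of the 6 genes had an unadjusted p under 0.05 as higher, beside 6.69% of all genes; both were picked out after their values were seen.

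Of 6 lymphatic names 5 had a probe and 3 were tested. Mmrn1, multimerin of lymphatic endothelium and platelets, exceeded background clearly on all 3 knockout arrays but on 0 of the 3 control arrays. In the main processing, with dim controls raised to the detection limit, it was at least 3.35-fold higher. The fitted log2 difference of 3.74 had a limma adjusted p of 0.00507, where 0.105% of all genes passed as higher. Mmrn1 entered the test through the knockouts alone, with control values below background, so its call is no result for the gene or the list. Under normexp with quantile normalisation its log2 difference was 1.04, beside 3.74 as fitted here. That is a smaller ratio than 3.35-fold, so the bound holds for the main processing alone. Pdpn, podoplanin of lymphatics and podocytes, was at 0.17 ± 0.11 (SE) and Prox1, the lymphatic transcription factor, at -0.03 ± 0.43 (SE), both with overlapping groups. Lyve1 and Reln did not exceed background on all arrays of either group, so they were not tested. Mmrn1 was called in 14 of the 17 alternatives that tested it. It was not called with the replicate block or without control 2 or control 3, where its largest limma adjusted p was 0.107. These alternatives rest on the same dim control values, so their count lends the call no support.

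Cells that sit beside the endothelium were compared in the same way. All 13 mural cell genes, of pericytes, smooth muscle and the renin cells, were measured, 0 passed and all groups overlapped, with a median of -0.02. Cnn1, calponin of smooth muscle, was at 0.23 ± 0.21 and Abcc9, a potassium channel subunit of pericytes, at -0.21 ± 0.11 (SE; adjusted p = 0.503). The 7 podocyte and the 8 proximal tubule genes had medians of 0.05 and 0.01, with 0 passing and no separated groups.

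Blood-borne cells can add to the levels of Pecam1 and Vwf. Of 9 platelet names 6 were measured and 0 passed, and against the control mean their median was -0.01, -0.07 and -0.12 in the controls and 0.18, 0.22 and -0.28 in the knockouts. Knockout 3 had the lowest platelet median and the highest Vwf. The erythroid list, with 5 of 7 names measured and 0 passing, had medians of 0.20, -0.02 and -0.18 in the controls and 0.02, -0.95 and -1.08 in the knockouts. The low erythroid medians of knockouts 2 and 3 are those of the arrays in the second slide row, and the part of slide row was not tested. The part of platelets and red cells in the levels of Vwf and Pecam1 was not tested either.

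Leukocytes can add to Pecam1 as well. Of 6 pan-leukocyte names 3 were measured, 0 passed and all groups overlapped, with Ptprc, the gene of CD45, at 0.21 ± 0.14 (SE) and a list median of 0.05. Of 10 macrophage genes 9 were above 0, beside 47.1% of all genes, and Cx3cr1, a chemokine receptor, was at -0.19 ± 0.14 (SE). For 5 of the 10 all knockouts lay above all controls, beside 9.04% of all genes, and 6 had an unadjusted p under 0.05 as higher, beside 6.69%, yet 0 passed over all genes. Lyz2, lysozyme, had a difference of 1.37 ± 0.32 (SE; adjusted p = 0.208), which was 0.78 when blocked by slide row. Mrc1, the mannose receptor that some endothelia also make, was at 0.77 ± 0.21 (SE; adjusted p = 0.259). The list median was 0.21 in control 1, -0.08 and -0.18 in the other two controls, and between 0.18 and 0.37 in the knockouts, with control 1 above knockout 3. The log2 of the list's summed signal, against the control mean, ran from -0.08 to 0.12 over the controls and from 0.23 to 0.38 over the knockouts. That sum weighs the brightest probes most, and unlike the list median it did not overlap. For the 10 endothelial genes the sum ran from -0.07 to 0.05 over the controls and from -0.06 to 0.02 over the knockouts. The part of leukocytes and macrophages in the endothelial values was not tested.

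**Figure D4:**
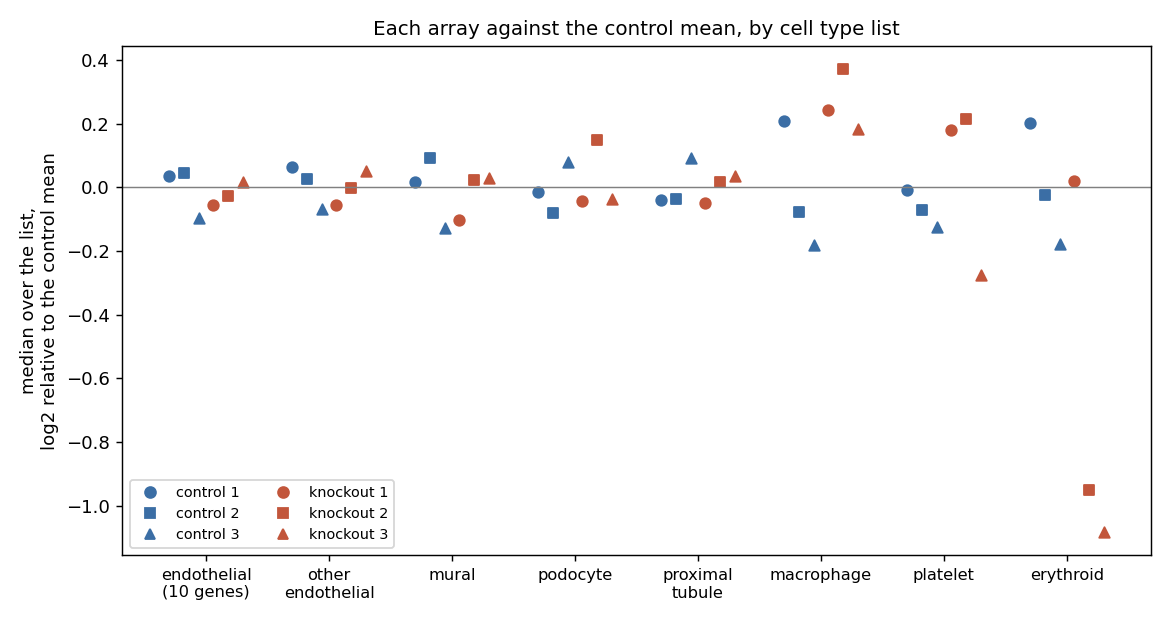
Median over each list of cell type genes on each array, in log2 units relative to the mean of the controls (blue, controls; red, knockouts; circle, square and triangle, animals 1, 2 and 3). The medians of the 10 endothelial genes lie between -0.10 and 0.05. The erythroid medians of knockouts 2 and 3, the arrays of the second slide row, are at -0.95 and -1.08.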

How the data were processed

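Total RNA from whole kidneys was labelled with Cy3 and hybridised to 1 array per mouse, per the labels. Per the file headers, the authors obtained spot intensity from version 10.7.1.1 of Agilent's Feature Extraction; the processed intensity is linear, background-subtracted and detrended within an array. The flags for background, saturation and outlier spots are other values per spot, as deposited. In the value table that the authors deposited, each number is a linear ratio; for probes with a ratio above 1 it equalled, within 1%, the processed signal over a constant of the array. The sources used here do not name that table's software.

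Here, outlier spots were left out, log2 signals of a probe's spots were averaged, and the 75th percentile of 55681 probes was taken off within every array. The 32948 probes kept were well above background on all arrays of a group. Accessions were matched to RefSeq names of GRCm38.p6 without versions; 28026 probes were named, and the brightest kept probe stood for a gene. The test was limma 3.58.1 (R 4.3.3), knockout minus control, over 15309 genes. In 20 simulated runs over 15307 genes, 200 of them set as changed, limma recovered 62.5% of 1.5-fold and 83.1% of 2-fold changes. How far the simulated noise matches that between these arrays was not tested. The rates therefore belong to the simulated setting and are not the power of the test for the endothelial genes. Plots used Python 3.11.15 and matplotlib 3.10.9.

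The members and lists were chosen with earlier results of these data known. The genes named are the 10 members with all their probes, Nampt, in each other list the called genes and the largest 2 differences among those whose groups did not overlap, and the nearest 3 genes by centred levels; further list members are named, with their values known, to show the range. Alternatives were quantile or median scaling, normexp (offset 50, on median spot signals) with quantile normalisation, the ratios the authors deposited, dropping the filter or requiring all 6 arrays, other probe summaries, other variance models, blocking by replicate number or slide row, and leaving out each array with the filter repeated. For "at least" folds, each dim array was set at its lowest signal well above background, or at the probe's own value if that was higher. Intervals are limma's for single genes, unadjusted for their number; the number of arrays limits their precision.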

Additional observations from a re-analysis of the deposited data

How the results depend on the processing

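In all 18 alternatives 0 of the 10 endothelial genes passed in either direction, and 0 of the 31 further endothelial genes and 0 of the 13 mural genes did. The smallest adjusted p of the 10 was 0.199 over 180 values. At an unadjusted p under 0.05, Tek passed with array weights and without control 3, Vwf without control 2 and Ehd3 without knockout 1. No other of the 10 did, each read at its brightest probe. Over all genes, 2862 of 15309 passed so with array weights and 1563 of 15474 without control 3. The counts were 1445 of 15377 without control 2 and 2022 of 15342 without knockout 1. With every probe tested on its own, the dimmer Kdr probe was under 0.05 too (limma unadjusted p = 0.0156), as were 3621 of 32948 probes. The median over the 10 genes ran from -0.06 to 0.02. Flt1, Tek, Vwf and Nos3 kept their sign in every alternative. Of the 180 values over all 10 genes, 22 had a turned sign, all in the other 6 genes. Plvap turned in 8 and Kdr in 6. Both changes of the filter, every probe on its own, the trended and robust variance and the replicate block left each estimate unchanged. No sign could turn in those settings, nor for genes with 1 probe when probes were averaged, so the kept signs lend no support.

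The count of genes passing over all genes, 26, was 11 with quantile normalisation, 77 with no filter on dim probes, 57 with a trended and robust variance, 116 with array weights, 16 when blocked by slide row and 0 by limma with a replicate block (1636 at an unadjusted p under 0.05), where 0 endothelial genes passed too. It ran from 0 to 95 when 1 array was left out (0 by limma when control 2 or control 3 was absent, beside unadjusted counts of 1445 and 1563; 1 when knockout 2 or knockout 3 was absent; 95 when knockout 1 was). The causes were not tested. Same-numbered arrays deviated together with correlations of 0.10, -0.10 and -0.03, so the numbers were not taken as pairs. All 13 probes of the 10 genes were well above background on all 6 arrays; other listed genes, such as Calcrl, Sele and Selp, were not.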
